A study of Homo sapiens with 4 samples.

Results

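The BCL2 family genes described here are the 10 genes whose symbols were BCL2, BCL2L1, MCL1, BCL2A1, BCL2L11, BBC3, PMAIP1, BAX, BAK1 and BID, out of 20136 protein-coding genes of the reference. They were chosen by name, as 4 anti-apoptotic and 6 pro-apoptotic genes, and their peaks are all those that the peak lists assign to these symbols. H3K4me3 and WDR5 were measured by chromatin immunoprecipitation and sequencing (ChIP-seq) in 2 established leukemia cell lines, with 1 sample for each antibody in each line, 4 samples in all. RS4;11 cells come from a B-cell precursor acute lymphoblastic leukemia (ALL), THP-1 cells from a monocytic acute myeloid leukemia (AML), and both carry a rearranged MLL gene. Both were grown in RPMI medium with fetal bovine serum and no treatment is named, so each group is 1 sample of 1 line. The labels gave the WDR5 sample of THP-1 the lymphoblastic type and the H3K4me3 sample of RS4;11 the myeloid type, and the samples were placed by the name of the line. There are no replicates, so no difference below has a replicate check and no test was made.

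The BCL2 family decides whether the outer membrane of the mitochondrion stays intact. BAX and BAK1 are the effectors that open pores in it, BCL2, BCL-XL (encoded by BCL2L1), MCL1 and BFL-1 (BCL2A1) hold them back, and the BH3-only proteins BIM (BCL2L11), PUMA (BBC3), NOXA (PMAIP1) and BID relay stress signals that release or activate the effectors. In lymphoid and myeloid leukemias the balance among these proteins sets the sensitivity to BH3-mimetic drugs. H3K4me3, trimethylation of lysine 4 of histone H3, marks the start sites of active genes, and WDR5 is a subunit of the MLL and SET1 complexes that place it.

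A listed peak is a region that the authors called as enriched and assigned to a transcript of the gene, up to 20 kb to either side of it. The transcription start site (TSS) was taken as the 5′ end of the gene, and the TSS window took in the 2000 bp before it and the 500 bp after it. Positions are in hg19, which has the coordinates of GRCh37. The H3K4me3 list of RS4;11 holds 24212 peaks and that of THP-1 holds 26523, with median widths of 1391 and 1241 bp, and the WDR5 lists hold 703 and 225 peaks. They give no read counts, heights or p-values, so the depth is unknown and a peak is either listed or not. The widest H3K4me3 peaks were 4478 and 4446 bp, and 1.921% and 1.044% of the peaks were 4000 bp or wider. This may be an upper limit on the widths in the lists, and whether wider enriched regions are left out of them was not tested. It bears on every missing TSS peak and on the width percentiles given below. In a list of 9 ubiquitous genes added after the values were seen, 5 (ACTB, GAPDH, TBP, B2M and TUBB) had no H3K4me3 peak in the TSS window in either line, so a gene without a listed peak is not shown to lack the mark. Of 8 B-lineage marker genes, 4 had a peak in the TSS window in RS4;11 and 3 in THP-1 cells, and CD79A and CD79B were among those with one in RS4;11 alone. For CD79B this rests on the window edge, because a THP-1 peak of 946 bp lay 504 bp from its TSS, just outside the window. PAX5 and EBF1, which also mark B-lineage cells, had one in THP-1 alone, against the labelled lineage. Among these markers a WDR5 peak was listed for EBF1 in THP-1 and for RAG1 in RS4;11 cells. Whether each peak list belongs to the line it is named for was not tested, and this bears on every difference between the lines below. Of 8 monocytic markers, 5 had a peak in each line, with SPI1 in RS4;11 alone and ITGAM in THP-1 alone, and none of 5 T-cell and erythroid markers had a peak in either line.

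Sequences at the sites where the members differed are shown next, on the strand of each gene and from 5′ to 3′. They are the 250 bases before the TSS. BCL2A1 (chr15:80263539-80263788, minus strand) and BCL2L11 (chr2:111876705-111876954, plus strand) lie at H3K4me3 peaks listed in THP-1 cells alone, PMAIP1 (chr18:57566978-57567227, plus strand) had no peak at its TSS in either line, and BAX (chr19:49457822-49458071, plus strand) had one in both. Capitals mark CG in BCL2L11 and PMAIP1, GAGGAAGT in BCL2A1 and CACGTG in BAX.
BCL2A1: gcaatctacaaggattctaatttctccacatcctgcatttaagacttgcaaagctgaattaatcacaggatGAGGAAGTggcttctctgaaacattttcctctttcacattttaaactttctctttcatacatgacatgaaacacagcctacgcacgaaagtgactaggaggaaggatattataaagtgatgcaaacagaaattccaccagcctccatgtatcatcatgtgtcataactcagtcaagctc
BCL2L11: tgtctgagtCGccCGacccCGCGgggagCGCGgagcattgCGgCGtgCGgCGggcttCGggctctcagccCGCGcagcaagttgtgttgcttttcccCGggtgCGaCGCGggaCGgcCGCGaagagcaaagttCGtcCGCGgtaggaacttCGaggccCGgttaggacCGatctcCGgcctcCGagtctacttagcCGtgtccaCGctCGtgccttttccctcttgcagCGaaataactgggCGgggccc
PMAIP1: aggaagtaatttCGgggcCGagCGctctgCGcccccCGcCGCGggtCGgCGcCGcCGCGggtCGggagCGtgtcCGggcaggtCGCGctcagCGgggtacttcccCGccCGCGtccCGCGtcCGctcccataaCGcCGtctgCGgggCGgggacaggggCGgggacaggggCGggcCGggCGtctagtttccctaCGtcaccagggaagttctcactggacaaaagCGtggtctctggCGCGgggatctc
BAX: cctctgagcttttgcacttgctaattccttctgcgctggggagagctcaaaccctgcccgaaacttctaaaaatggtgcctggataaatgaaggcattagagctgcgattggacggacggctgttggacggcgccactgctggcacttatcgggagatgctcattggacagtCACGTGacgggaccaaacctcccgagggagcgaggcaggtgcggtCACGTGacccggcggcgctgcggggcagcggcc
The BCL2A1 stretch held 2 CG, against 33 in BCL2L11, 36 in PMAIP1 and 19 in BAX. GAGGAAGT, a purine-rich sequence of the kind bound by ETS factors such as PU.1, occurred 1 time in the BCL2A1 stretch. CACGTG, the E-box, occurred 2 times in the BAX stretch.

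Most members had a listed H3K4me3 peak in both lines, as did most protein-coding genes, and few had one at the start site in RS4;11 cells. In RS4;11 cells 8 of the 10 genes had a listed H3K4me3 peak, beside 73.3% of all protein-coding genes, and BCL2A1 and BCL2L11 had none. In THP-1 cells all 10 genes had a listed peak, beside 78.2% of all genes. At the TSS window the counts were lower and further apart. Here 3 genes had a peak in RS4;11 cells (BAX, BAK1 and BID), beside 49.2% of all genes, and 6 in THP-1 cells, beside 55.3%. The TSS base itself lay in a peak at 2 genes in RS4;11 and 5 in THP-1 cells, where the shares of all genes were 45.7% and 48.5%.

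The members fell into 3 groups by their TSS windows. BAX, BAK1 and BID had a peak in both lines, a pattern shared by 43.4% of all genes. BCL2L1, BCL2A1 and BCL2L11 had one in THP-1 cells alone, as did 11.9% of all genes, and 0 members had one in RS4;11 cells alone, as did 5.72%. BCL2, MCL1, BBC3 and PMAIP1 had none in either line, as did 38.9%. With 10 genes these counts describe the members and no more.

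**Figure D1:**
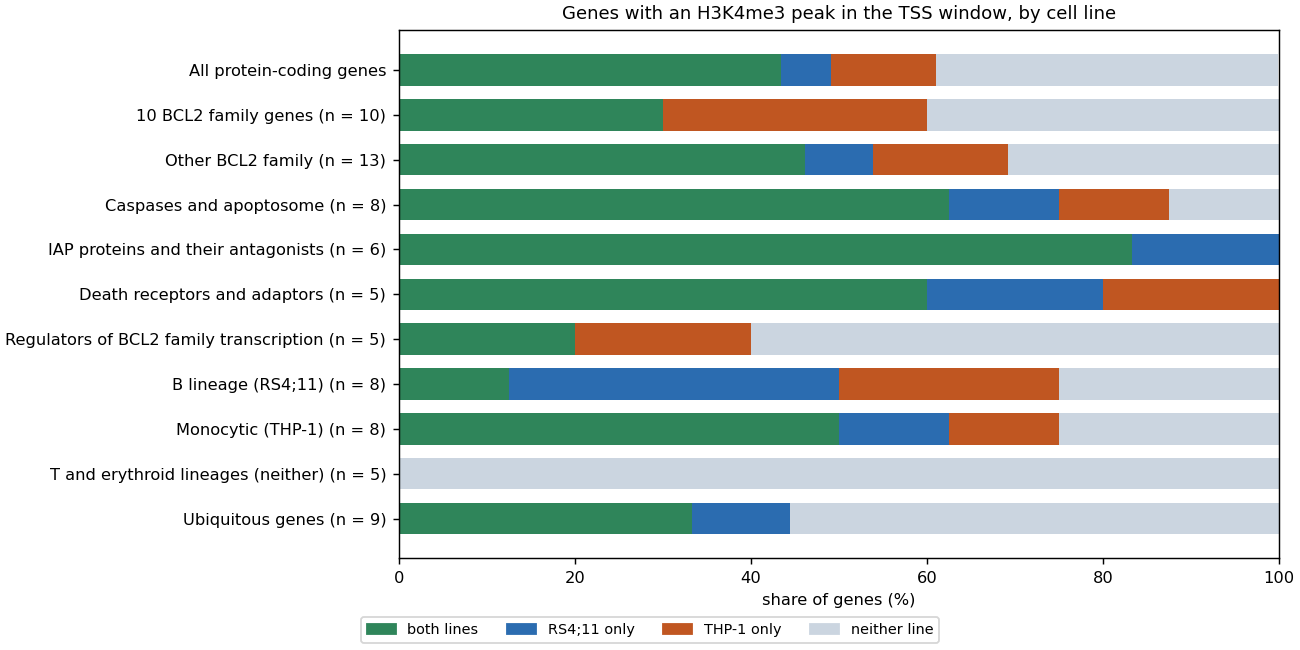
Share of genes (%) with an H3K4me3 peak in the TSS window in both lines, in RS4;11 alone, in THP-1 alone or in neither, for all protein-coding genes, the 10 BCL2 family genes and the other gene lists, with 1 sample per line. The bar of the BCL2 family has 3 genes in both lines, 3 in THP-1 alone and 4 in neither, and no RS4;11 segment.

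The number of peaks and their summed length did not follow the same order as the start sites. RS4;11 cells had 30 distinct peaks listed for the family, with a summed width of 47482 bp, a median of 1239 bp and a range from 394 to 4037 bp. THP-1 cells had 27 peaks over 40266 bp, with a median of 1030 bp and a range from 292 to 3985 bp. The median number of peaks per member was 2.5 in each line, beside a median over all genes of 1.0 in RS4;11 and 2.0 in THP-1 cells. Of the RS4;11 peaks, 17 had no base in the gene, 5 touched an exon of a protein-coding transcript and 8 lay in the gene without touching one, and the THP-1 peaks divided into 14, 5 and 8. Peaks at the same place in both lines made up 13 of 30 in RS4;11 (43.3%) and 13 of 27 in THP-1 cells (48.1%), beside 55.8% and 51.8% of all H3K4me3 peaks. Most of the family's peaks lay away from the start sites, with 3 of 30 in the TSS window of their gene in RS4;11 and 6 of 27 in THP-1 cells.

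The peaks of the anti- and pro-apoptotic genes are given side by side. The 4 anti-apoptotic genes had 11 peaks over 19660 bp in RS4;11 and 15 over 19192 bp in THP-1 cells, and 4 of them in each line (36.4% and 26.7%) overlapped a peak of the other line. The 6 pro-apoptotic genes had 19 peaks over 27822 bp in RS4;11 and 12 over 21074 bp in THP-1 cells, of which 9 in each line (47.4% and 75.0%) overlapped. Set beside the 55.8% and 51.8% of all peaks, the pro-apoptotic share was lower in RS4;11 and higher in THP-1 cells. The anti-apoptotic share was lower in both. The number of overlapping peaks was the same in each line, so the shares differ through the number of peaks listed. BID alone had 7 of the 19 pro-apoptotic peaks in RS4;11 cells, against 2 of the 12 in THP-1 cells. Among the 4 shared anti-apoptotic peaks of each line, 1 covered the TSS of TPX2, a neighbour of BCL2L1. Median peak width was 2032 bp for the anti-apoptotic and 1152 bp for the pro-apoptotic genes in RS4;11 cells. In THP-1 cells it was 976 and 1771.5 bp, so the order of the classes was opposite in the lines. These widths pool peaks listed unevenly over the genes. BCL2 and BCL2L1 had 4 and 6 of the 11 anti-apoptotic peaks in RS4;11 cells, and 0 of the 11 lay in a TSS window. The RS4;11 peaks also include those over the TSSs of TPX2 and FTL, 3481 and 3477 bp wide. In RS4;11 cells the median length of the TSS window under a peak was 0 bp for anti-apoptotic and 136.5 bp for pro-apoptotic genes. In THP-1 cells it was 421.0 and 903.0 bp. Over all genes it was 0 bp in RS4;11 and 551.5 bp in THP-1 cells. Of the pro-apoptotic genes in RS4;11 cells, BCL2L11, BBC3 and PMAIP1 had 0 bp covered, BID 273, BAK1 964 and BAX 1023 bp. The median of 136.5 bp thus lies between 0 bp and the 273 bp of BID. Genes of a class are not replicates, and no test was made of the classes.

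**Figure D2:**
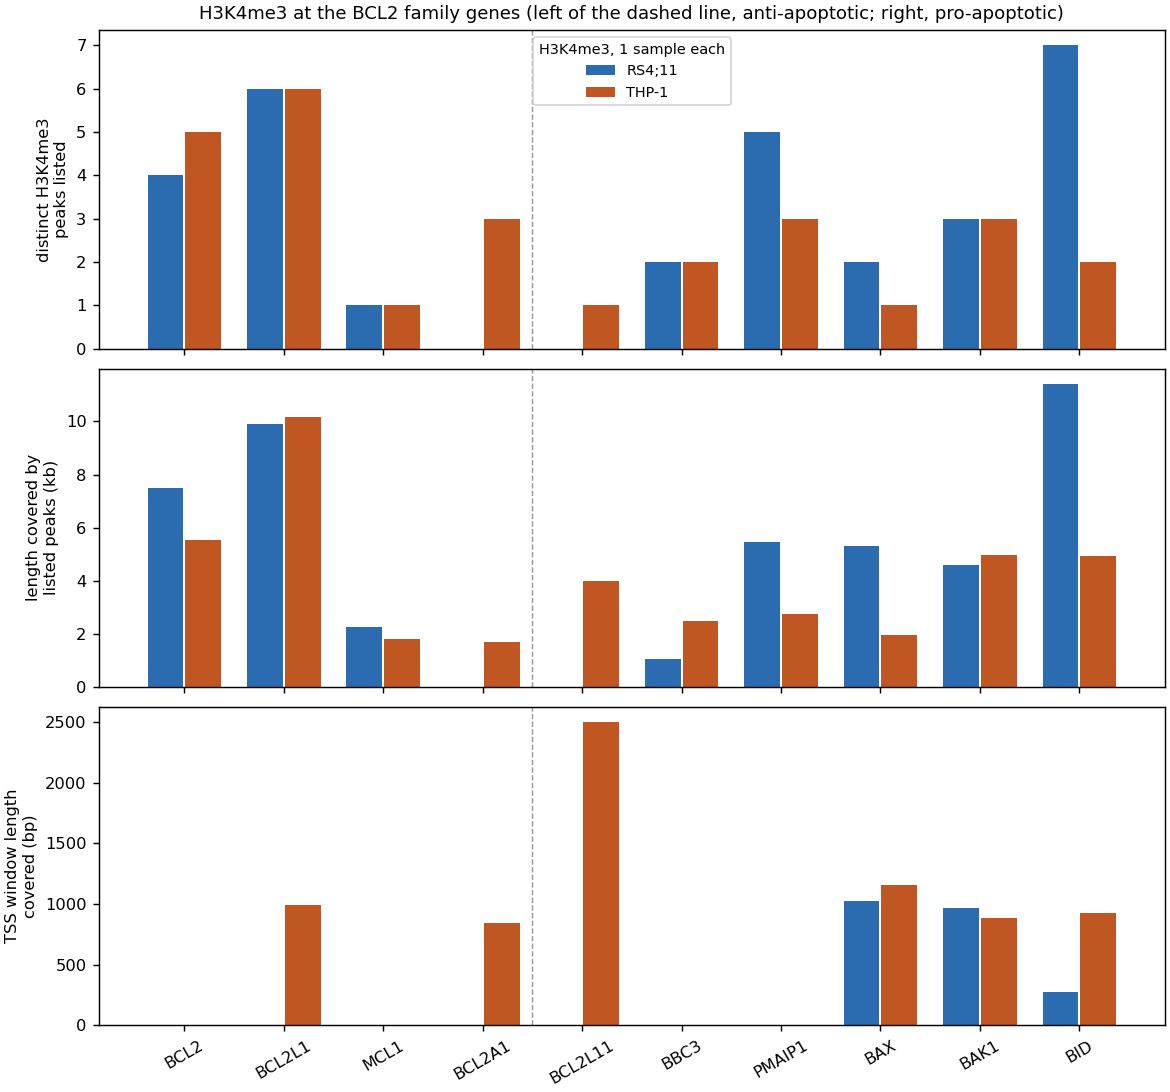
Number of distinct H3K4me3 peaks listed (top), length they cover in kb (middle) and length of the TSS window under a peak in bp (bottom) for each BCL2 family gene, with RS4;11 in blue and THP-1 in orange, 1 sample each. BID had the most peaks in RS4;11 cells (7, against 2 in THP-1), and BCL2L11 the most covered window in THP-1 cells (2501 bp, against 0 in RS4;11).

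Among the guardians, BCL2 had no peak near its TSS in either line. BCL2, which is on the minus strand of chromosome 18 with its TSS at position 60987361, had 4 listed peaks in RS4;11 cells over 7484 bp and 5 in THP-1 cells over 5540 bp. In RS4;11 cells all 4 lay at the 3′ end of this gene of 196783 bp. They were a peak of 2032 bp in the intron, 1 of 2762 bp over the last exon and its UTR (chr18:60791447-60794208), and 2 beyond the gene. In THP-1 cells the 5 peaks were spread along the intron and were 616 to 1821 bp wide. None of the peaks overlapped between the lines. The nearest peak to the BCL2 TSS was 45018 bp upstream in RS4;11 and 18109 bp downstream in THP-1 cells.

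BCL2L1 had 6 listed peaks in each line, over 9900 bp in RS4;11 and 10152 bp in THP-1 cells, but a peak over its TSS in THP-1 cells alone. This peak (chr20:30309822-30312283, 2462 bp) covered 992 bp of the TSS window in THP-1 cells, and the nearest peak in RS4;11 cells was 14199 bp upstream. That upstream peak, 3481 bp wide in RS4;11 and 3626 bp in THP-1 cells, covered the TSS of the neighbouring gene TPX2, a spindle assembly factor. A peak in the BCL2L1 intron was shared, with 2286 bp in RS4;11, 1854 bp in THP-1 and 1854 bp in common. A peak downstream of the gene was also shared, with 703 bp in common. The other 3 peaks of each line, the THP-1 peak over the TSS among them, had no counterpart in the other line.

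MCL1, a guardian with a short-lived protein, had 1 listed peak in each line, 2276 bp in RS4;11 and 1823 bp in THP-1 cells with 1814 bp in common. It lay 16773 bp downstream of the TSS in RS4;11 and 17235 bp in THP-1 cells, beyond the transcripts used by the authors and the protein-coding transcripts of the reference, at the far end of a longer transcript with no defined coding sequence. No peak of either line was in the MCL1 TSS window, as at ACTB and GAPDH.

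BCL2A1, a target of NF-kB that is expressed in myeloid cells, had 0 listed peaks in RS4;11 and 3 in THP-1 cells. The THP-1 peaks were 842, 543 and 292 bp wide, and the widest ended 157 bp upstream of the TSS and covered 94 of the 250 bases printed above. The narrowest was at the 0.3 percentile of all THP-1 peak widths. The nearest peak in RS4;11 cells was 46133 bp from the BCL2A1 TSS. THP-1 cells thus had short peaks upstream of BCL2A1 and RS4;11 cells had none listed.

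Among the BH3-only genes, BCL2L11 had the widest peak of the family in THP-1 cells and none in RS4;11 cells. The THP-1 peak (chr2:111874426-111878410) was 3985 bp wide, at the 98.9 percentile of the line's peak widths, and covered the whole TSS window of 2501 bp. The nearest RS4;11 peak was 47022 bp upstream and 697 bp wide. BCL2L11 encodes BIM, which activates BAX and BAK1 directly and is bound by all the guardians. The THP-1 peak was assigned by the authors to the 20 kb upstream of the transcript alone, and it covers the TSS because the reference places the 5′ end of the gene 1536 bp before the start of the RefSeq transcript.

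BBC3, which encodes the p53 target PUMA, had 2 listed H3K4me3 peaks in each line and none in the TSS window. In RS4;11 cells they were 659 and 394 bp wide and lay 8077 and 11183 bp upstream of the TSS. In THP-1 cells 1 of 605 bp lay in the intron, 862 bp downstream of the TSS, and 1 of 1894 bp lay upstream and contained the RS4;11 peak of 394 bp. The authors assigned this THP-1 intron peak to an intron of some BBC3 transcripts and to the 20 kb upstream of others. It came into the window when the window was set at 1000 bp to each side of the TSS.

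PMAIP1, which encodes NOXA, the antagonist of MCL1 and BFL-1, had 5 listed peaks in RS4;11 cells over 5450 bp and 3 in THP-1 cells over 2751 bp. None was within 5000 bp of the TSS. The 3 THP-1 peaks, 973, 891 and 887 bp wide, each overlapped an RS4;11 peak by 973, 805 and 747 bp. The nearest to the TSS was 6551 bp downstream in RS4;11 and 13785 bp upstream in THP-1 cells.

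BID, the BH3-only protein that caspase-8 cleaves, had 7 listed peaks in RS4;11 cells over 11422 bp and 2 in THP-1 cells over 4934 bp. In THP-1 cells a peak of 2587 bp covered the TSS, and in RS4;11 cells no peak did. Both lines had a peak upstream of BID, and the THP-1 peak of 2347 bp lay within the RS4;11 peak of 4037 bp. The RS4;11 peak was the widest of the family, at the 98.4 percentile of its line, and its edge, 1728 bp from the TSS, put 273 bp of it into the window. The other RS4;11 peaks, 3 in introns, 1 at the last exon and 2 beyond the gene, had no counterpart in THP-1 cells. BID was thus counted in both lines at the TSS window but its TSS base was covered in THP-1 cells alone.

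The effectors were the 2 members with a peak over the TSS base in both lines. BAX had a TSS peak of 1824 bp in RS4;11 and 1953 bp in THP-1 cells, with 1821 bp in common, and these covered 1023 and 1155 bp of the window. In RS4;11 cells BAX was also assigned a peak of 3477 bp downstream, which covered the TSS of FTL, the gene of ferritin light chain. BAK1 had 3 listed peaks in each line, over 4596 and 4952 bp, and all 3 were shared. Its TSS peak was 1656 bp in RS4;11 and 2441 bp in THP-1 cells with 1573 bp in common, and the longer THP-1 peak ran further into the gene.

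**Figure D3:**
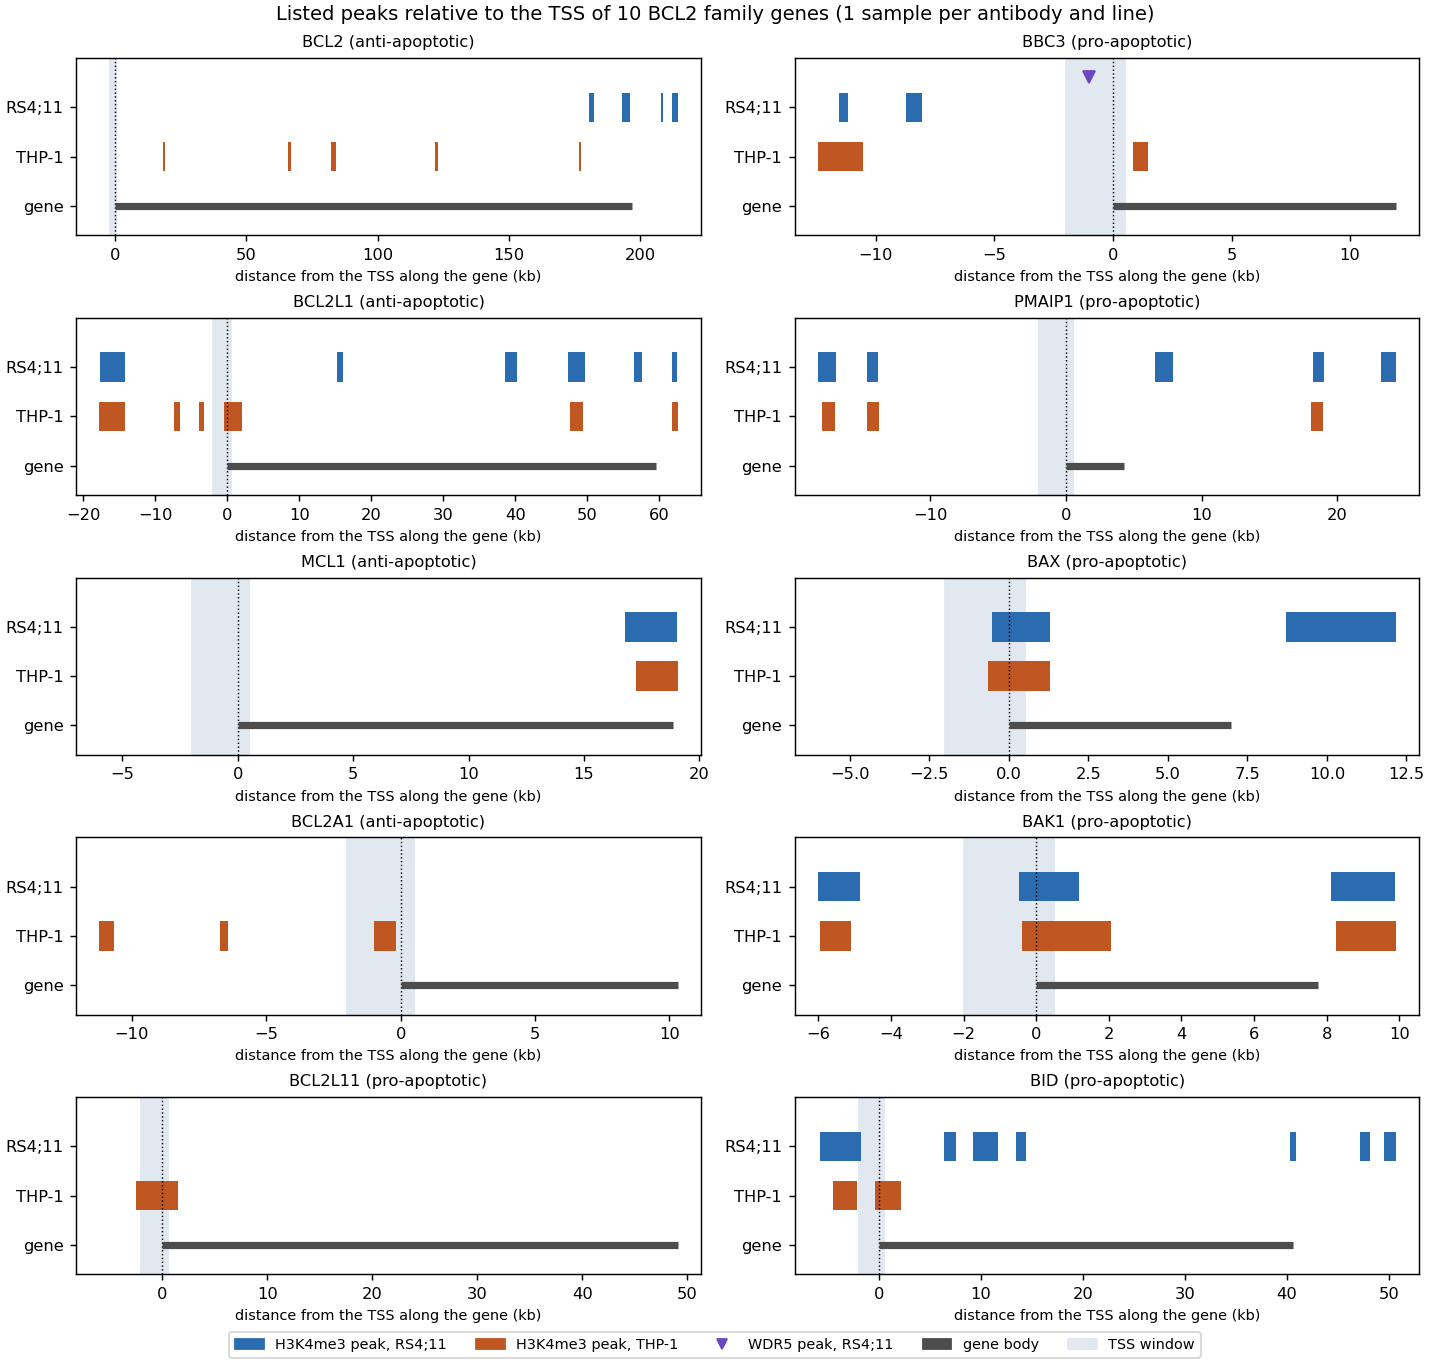
Listed peaks of the 10 genes by distance from the TSS along the gene (kb, with upstream negative), with H3K4me3 in RS4;11 in blue and in THP-1 in orange, the RS4;11 WDR5 peak as a triangle, the gene as a grey bar and the TSS window shaded. BAX and BAK1 have a peak over the TSS in both lines, and BCL2, MCL1 and PMAIP1 have all their peaks more than 5000 bp from it.

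By width, the peaks in the TSS windows of the family were spread over most of the range in THP-1 cells, where they ran from 842 bp at BCL2A1 (the 30.4 percentile) through 1953 bp at BAX (69.3), 2441 bp at BAK1 (80.3), 2462 bp at BCL2L1 (80.7) and 2587 bp at BID (83.3) to BCL2L11. In RS4;11 cells the TSS peaks of BAK1 and BAX were close together, at the 56.9 and 60.9 percentiles, and the BID peak that reached the window was at the 98.4 percentile. The TSS peaks of BAX and BAK1 were wider in THP-1 cells, where the median width of all peaks was lower.

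**Figure D4:**
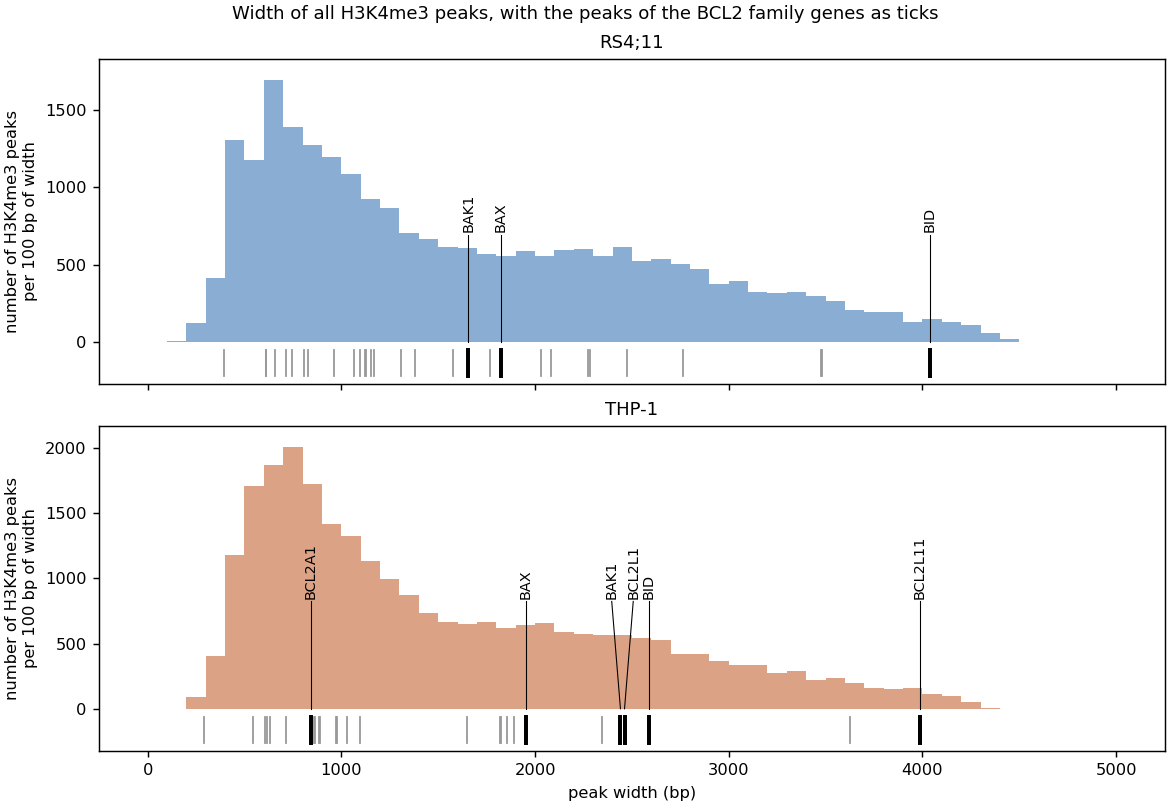
Number of H3K4me3 peaks per 100 bp of width in RS4;11 (top) and THP-1 cells (bottom), with each peak of the 10 genes as a tick under the axis and those in a TSS window in black with the gene's name. BCL2L11 in THP-1 cells (3985 bp) and BID in RS4;11 cells (4037 bp) are near the upper end of the widths, which reach 4446 and 4478 bp.

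WDR5 was listed at 1 of the 10 genes in RS4;11 cells, beside 4.04% of all genes, and at 0 in THP-1 cells, beside 1.35%. The gene was BBC3. Its WDR5 peak was 426 bp wide, with its centre 1022 bp upstream of the TSS, and so it lay in the TSS window, as at 0.223% of all genes in RS4;11 cells. In THP-1 cells 0.0745% of all genes and 0 members had WDR5 there, and the nearest THP-1 peak was 956831 bp from the BBC3 TSS. No H3K4me3 peak overlapped the WDR5 peak. The nearest in RS4;11 cells was 6843 bp away, and the nearest in THP-1 cells was 1671 bp away. Of 45 genes with WDR5 in the TSS window in RS4;11 cells, 31 (68.9%) also had H3K4me3 there and 14, BBC3 among them, did not. For the other 9 members no WDR5 peak was listed in either line.

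The BBC3 WDR5 peak held 10 CG at 51.9% GC. Of all stretches of 30 bases in the whole peak, 86 of 397 (21.7%) occurred again elsewhere on chromosome 19, beside a median of 3.65% over the 22 WDR5 peaks of RS4;11 cells on that chromosome, 4 of which had a larger share. The authors kept uniquely aligned reads, and the part of repeated sequence in this peak was not tested.

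CG content at the promoters was set beside the peaks for the 9 members matched in the RefSeq promoter table, which gives 250 bases before and 50 after the start of 35116 transcripts, with a median of 14 CG. PMAIP1 had 42 CG, BCL2L11 39, BAX 38 and BCL2 31, all above the upper quartile of 28. BCL2L1 had 20, BAK1 7, BID 6, BBC3 5 and BCL2A1 2, and MCL1 was not matched. The start in this table was not always the TSS of the window. It lay 1536 bp from that TSS at BCL2L11, 359 bp at BCL2 and at most 105 bp at the other matched members. The THP-1 peak of BCL2L11 covered 170 of the 300 bases counted. Of the 6414 genes at or above the upper quartile, 63.3% had an H3K4me3 peak in the TSS window in RS4;11 and 71.2% in THP-1. Of the 2119 genes at or below the lower quartile of 4 CG, 11.2% and 13.6% had one. BAX had a peak in both lines, BCL2L11 in THP-1 alone, and PMAIP1 and BCL2 in neither, so CG-rich members were found in each group. BAK1 and BID, with peaks in both lines, lay between the quartiles. Of the 6785 genes there, 51.8% in RS4;11 and 57.4% in THP-1 cells had a peak. BCL2L1, with a peak in THP-1 cells alone, and BBC3, with none in the window, also lay there. BCL2A1, at or below the lower quartile, had a peak in THP-1 cells alone, as did 5.6% of that group.

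Motifs were counted on both strands of the 300 bases in the table. CACGTG occurred 4 times in the 300 bases at BAX and 1 time at BBC3, and 7.26% of all promoters held it. GAGGAAGT occurred at BCL2A1 and BAK1, and 2.59% held it. TATAAA occurred 2 times at BCL2L1 and 1 time at BCL2A1, with 11.5% holding it, and GGGCGG, held by 45%, occurred 4 times at PMAIP1 and also at BCL2L11, BAX and BAK1. These counts depend on the stretch. In the 250 bases before the TSS, GGGCGG occurred 3 times at BCL2 and 1 time at MCL1, and was absent at BAX. CCAAT was held by 34.6% and occurred at BCL2L11, BBC3, BAX and BAK1. A match is a run of letters and not a bound site.

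The other genes of the pathway were taken from lists set by name, which were chosen with earlier results of these data known. They are read against the same shares of all genes. Of 13 other BCL2 family genes, 7 had a peak in the TSS window in RS4;11 and 8 in THP-1 cells. BCL2L2, which encodes the guardian BCL-W, had it in RS4;11 alone, through 57 bp of a peak of 4332 bp. HRK and BNIP3, both BH3-only genes, had it in THP-1 alone. Of 8 genes of caspases and the apoptosome, 6 had a peak in each line. APAF1, the scaffold of the apoptosome, had it in RS4;11 alone, where a peak of 4253 bp covered all 2501 bp of the window, and CASP9, the caspase it activates, in THP-1 alone, with 2137 bp of the window covered.

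Of 6 genes of IAP proteins and their antagonists, 6 had a TSS peak in RS4;11 and 5 in THP-1 cells, and DIABLO, which encodes the IAP antagonist SMAC, was the exception. A THP-1 peak of 2483 bp lay 622 bp from the DIABLO TSS, outside the window. Of 5 death receptor and adaptor genes, 4 had one in each line, with CFLAR, the inhibitor of caspase-8, in RS4;11 alone and TNFRSF10A, a TRAIL receptor, in THP-1 alone. Of 5 regulators of BCL2 family transcription, 1 had one in RS4;11 (RELA) and 2 in THP-1 cells (RELA and TP73).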

How the data were processed

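WDR5 and H3K4me3 ChIP-seq peak lists of 2 cell lines, 1 sample each, were analysed. According to the methods of the study, chromatin was sonicated for WDR5 and digested with micrococcal nuclease for H3K4me3, whereas the labels name sonicated nuclei for all samples. The authors aligned reads to hg19 with Eland (up to 2 mismatches, unique alignments) and called peaks with MACS at default settings. The submitters' processing notes name CASAVA 1.7 and 1.8.2. The MACS version and any input control are not given in the sources used here. The deposited values are peak positions and yes or no flags per transcript (20 kb upstream, 20 kb downstream, exon, intron), with no read counts, so peaks cannot be weighted by depth.

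Distinct peaks were taken by position for each gene symbol. Widths are end minus start plus 1, and width percentiles are over all H3K4me3 peaks of the line. GENCODE release 44 on GRCh37 gave genes and TSSs. Peaks on sequences outside this reference (4 and 6 for WDR5, 37 and 35 for H3K4me3, RS4;11 first) were left out where it was used. Overlap meant 1 bp. Promoter counts came from the RefSeq table (GRCh38.p14), placed on GRCh37 by exact match, and printed sequences were read from GRCh37. All 10 members were named, and of the other lists the genes with a TSS peak in 1 line alone and those with WDR5, of which some are not reported here. The members and lists were chosen with earlier results of these data known. Scripts were checked on simulated peaks first. Scripts ran in Python 3.11.15 (numpy 2.4.6 and scipy 1.17.1, figures by matplotlib 3.10.9). Alternatives changed the lines counted for a gene, peak width, window, TSS and overlap.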

Additional observations from a re-analysis of the deposited data

How the results depend on the processing

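Of 40 recalculations of 16 results, 30 stayed within a ratio of 1.5 of the reported value and 10 did not. When only peaks flagged in an exon or intron were counted, 5 members in RS4;11 and 6 in THP-1 cells had a listed H3K4me3 peak (from 8 and 10). Their distinct peaks were then 12 and 11 (from 30 and 27), their covered length 19251 and 17442 bp (from 47482 and 40266 bp), and 0 members had a listed WDR5 peak in RS4;11 cells (from 1). With 5000 bp to each side of the TSS, the median covered length of the pro-apoptotic genes was 908.5 bp in RS4;11 and 2197.0 bp in THP-1 cells (from 136.5 and 903.0 bp), and that of the anti-apoptotic genes stayed at 0 and 421.0 bp. When any WDR5 peak within 50 kb of the gene was counted, 2 members had one in RS4;11 cells, BBC3 and BCL2A1, with 23709 bp between BCL2A1 and the nearer of its peaks. The number of members with a TSS peak ran from 2 to 3 in RS4;11 and from 5 to 7 in THP-1 cells over the windows and TSSs tried, of which 5000 bp to each side was chosen after seeing the data. The 13 peaks shared between the lines were 13 under each overlap rule tried. A stricter peak threshold could not be applied, because the lists hold no p-values or enrichments. No paired analysis was possible because each antibody has 1 sample per line. With 1 sample each, differences between lines cannot be told apart from differences between samples, and the unknown depth limits what a missing peak means.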
